A study of Mus musculus with 10 samples.

Results

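Nr4a1 (also called Nur77) and Nr4a2 (also called Nurr1) are orphan nuclear receptors that were followed here in the visual cortex of young mice after removal of one eye. All non-control probe sets with a single annotated symbol of either gene were taken, which gave 2 of the 8251 genes on the array with a symbol of their own and 3 of 12422 probe sets: 102371_at for Nr4a1, and 92248_at and 92249_g_at for Nr4a2. All 3 were among the 7453 probe sets bright enough to be tested. Nr4a3, the other gene of the family, was not analysed here. The 5 deprived samples were visual cortex taken on the side opposite the lost eye, and the 5 non-deprived samples came from the same side as it. All animals were wild-type C57Bl6 mice that lost one eye at postnatal day 14 and were killed 4 days later, at postnatal day 18, so both groups carry the operation and no intact animals are included. The labels name 4 mice and pooled samples without assigning mice to arrays, so the p-values cover only the spread between these samples, which may be partly technical.

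NR4A receptors are transcription factors with no known obligate ligand, whose activity is thought to follow mainly from how much of them is made. In neurons the genes are transcribed within minutes to hours of calcium and cAMP signals through factors such as CREB, MEF2 and SRF, and the proteins bind DNA as monomers at the NGFI-B response element (NBRE), or as dimers, in part with RXR. In the cortex Nr4a1 is known as an immediate early gene of active neurons, whereas Nr4a2 is also a constitutive marker of subplate, layer 6b and claustrum neurons and, outside the cortex, of midbrain dopamine neurons. The comparison asks whether either of them differs between cortex without and cortex with its main input from the eyes.

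The 250 bases upstream of each gene's start are shown because the CREB half-site TGACG, a known entry point of the calcium and cAMP signals, occurs in both. Sites of MEF2 and SRF were not searched. The sequences are from RefSeq, mouse build GRCm38.p6, and both members had an entry: chr15:101266596-101266845 on the plus strand for Nr4a1, and chr2:57124004-57124253 on the minus strand for Nr4a2. Capitals mark TGACG on either strand, which reads CGTCA when it lies on the opposite strand.

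Nr4a1: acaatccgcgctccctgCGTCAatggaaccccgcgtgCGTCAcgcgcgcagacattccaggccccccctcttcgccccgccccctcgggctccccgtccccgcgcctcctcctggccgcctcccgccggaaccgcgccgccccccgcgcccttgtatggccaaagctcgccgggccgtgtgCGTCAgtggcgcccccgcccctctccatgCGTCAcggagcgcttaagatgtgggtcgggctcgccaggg
Nr4a2: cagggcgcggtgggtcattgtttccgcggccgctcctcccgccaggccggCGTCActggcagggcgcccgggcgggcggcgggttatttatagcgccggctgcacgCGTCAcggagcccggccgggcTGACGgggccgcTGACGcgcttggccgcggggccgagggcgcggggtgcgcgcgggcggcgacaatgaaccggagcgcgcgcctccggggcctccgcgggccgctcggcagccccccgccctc

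Each window held 4 copies of TGACG. Counted back from the start, those of Nr4a1 began at positions -233, -213, -69 and -40, all on the opposite strand. Those of Nr4a2 began at -200 and -144 on the opposite strand and at -123 and -111 on the gene's strand. Of 32851 upstream windows of the same length in the table, 17.8% held at least 1 copy and 0.137% held at least 4. Both members' windows are rich in G and C (74.4% for Nr4a1 and 80% for Nr4a2), and among the 1503 windows with at least 74.4%, the share with 4 copies was 0.399%. Neither window held the full CRE, TGACGTCA, which 1.55% of all windows did, nor the NBRE, AAAGGTCA, which 1.34% did. A match is a description of the letters and is no evidence of binding.

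Nr4a1 had the lower mean signal in deprived cortex. Its signals (MAS5 intensities in arbitrary units, scaled by array) were 1337, 2454, 2299, 2087 and 1770 in deprived replicates 1 to 5, against 2305, 4145, 3558, 4409 and 3651 in non-deprived replicates 1 to 5. The groups overlapped through 1 array of each: non-deprived replicate 1 lay below deprived replicate 2, and the other 4 non-deprived arrays lay above all 5 deprived arrays. The mean was 1989 ± 446 in deprived and 3613 ± 811 in non-deprived cortex (SD, n = 5 each), so the linear mean was 44.9% lower. On the scale of log2(signal + 16), which hardly compresses a signal of this size, the difference of deprived minus non-deprived was -0.85 ± 0.18 (SE), with a 95% interval from -1.24 to -0.46. That corresponds to 0.553 of the non-deprived level, with an interval from 0.422 to 0.726. In whole cortex, fewer cells that express the gene and less RNA per cell cannot be told apart.

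**Figure D1:**
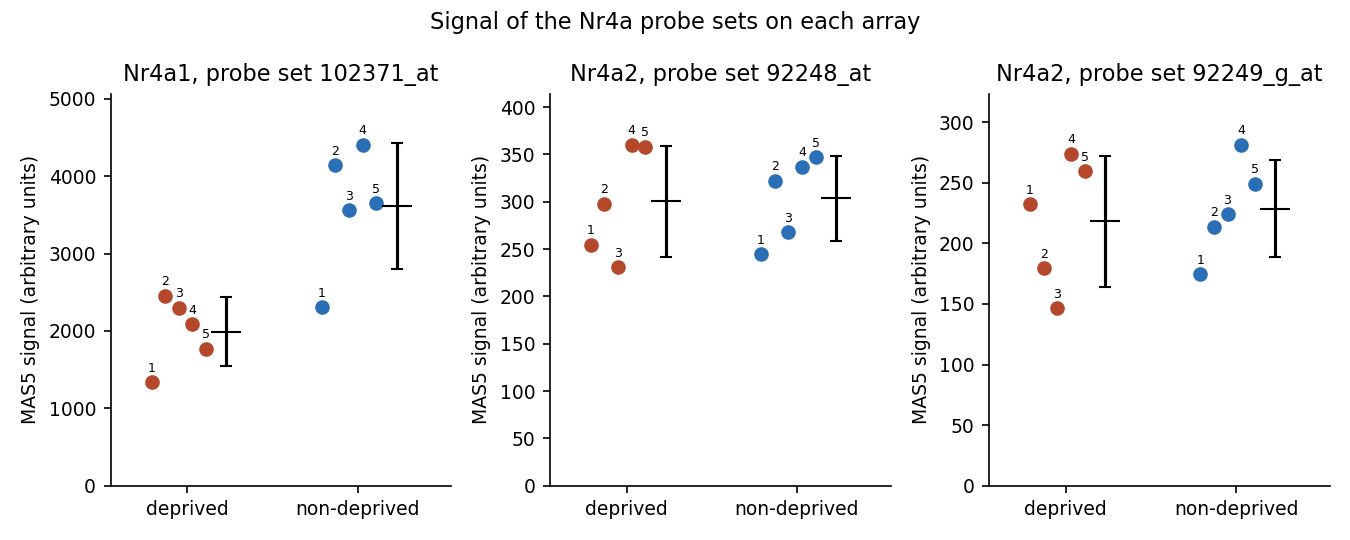
MAS5 signal of each Nr4a probe set on each array, from 0, in deprived (left, red) and non-deprived (right, blue) visual cortex; points are arrays, small digits are replicate numbers, and bars give the mean and SD (n = 5 each). For Nr4a1, 1 non-deprived array falls within the deprived range, while the 2 groups overlap widely for both Nr4a2 probe sets.

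In limma the unadjusted p was 0.000362, the seventh smallest of the 7453 probe sets, and the Benjamini-Hochberg adjusted p over all of them was 0.361. An exact two-sided permutation test of this gene alone over every assignment of the arrays to 5 and 5 gave p = 0.0159, where the smallest p the design allows is 0.00794. Both this test and limma take the arrays as unpaired. What a shared replicate number means is not in the labels, and a fit with that number as a block is in the closing section. No probe set passed an adjusted p of 0.05 in limma (0 of 7453, or 0%), while 176 (2.36%) were lower and 181 (2.43%) higher in deprived cortex at an unadjusted p under 0.05. Without non-deprived replicate 1, the lowest non-deprived array for this gene, the log2 difference was -1.01 and the limma adjusted p 0.0303. Leaving out any other single array gave log2 differences between -0.72 and -0.94, and none of these passed.

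**Figure D2:**
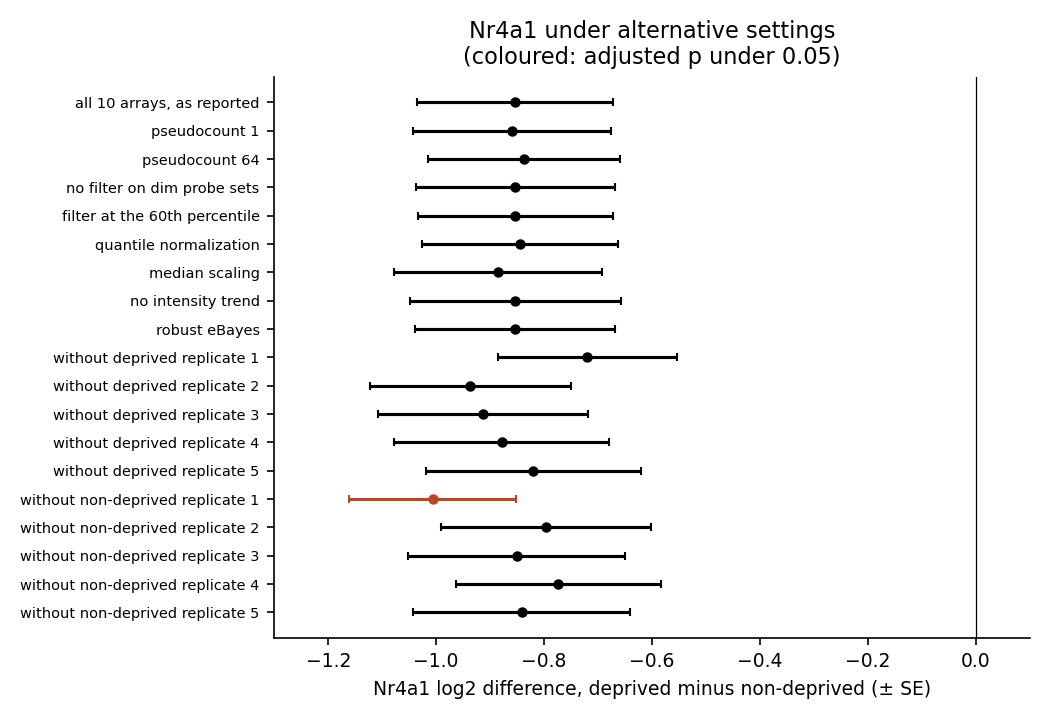
Log2 difference of Nr4a1, deprived minus non-deprived, with its SE, for all 10 arrays and under other scalings, filters, pseudocounts and variance models and with 1 array left out; red marks an adjusted p under 0.05. The estimates lie between -1.01 and -0.72, and filters and variance models cannot move them. Of the settings drawn only the omission of non-deprived replicate 1 is red. The replicate block of the closing section, with a limma adjusted p of 0.00372, is not drawn.

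By size, the difference of Nr4a1 was the ninth most negative of all 7453. Among the 626 tested probe sets with a mean log2 value at least that of Nr4a1, only Fos, the AP-1 subunit, had a more negative difference (-0.88). The relative spread between arrays of Nr4a1 was alike in the groups, at 22.4% of the mean in both deprived and non-deprived cortex.

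**Figure D3:**
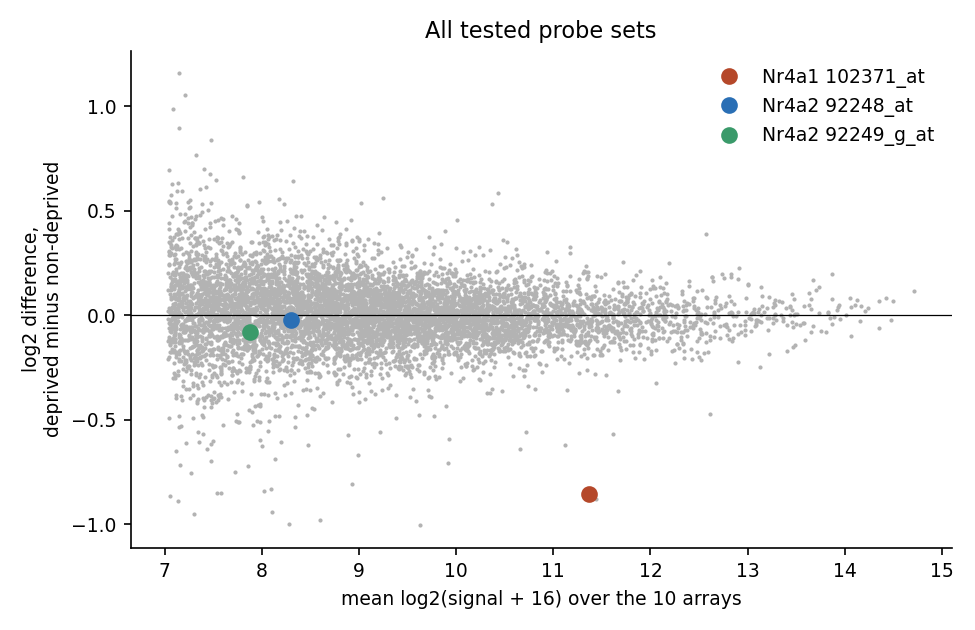
Log2 difference of deprived minus non-deprived cortex against the mean log2(signal + 16) over the 10 arrays, for all 7453 tested probe sets (grey) and the 3 Nr4a probe sets (coloured). Nr4a1 lies at -0.85, far below the grey band at its level, and both Nr4a2 probe sets lie inside the band.

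Nr4a2 showed no difference of that size. On 92248_at its signals were 254.7, 297.8, 231.1, 360.3 and 358.3 in deprived replicates 1 to 5, against 244.7, 322.1, 267.6, 336.8 and 347.2 in non-deprived replicates 1 to 5. The ranges overlapped, with the lowest and the highest of the 10 values both in the deprived group. The mean was 300.4 ± 58.8 in deprived and 303.7 ± 45.0 in non-deprived cortex (SD, n = 5 each). The log2 difference was -0.02 ± 0.15 (SE), with a 95% interval from -0.34 to 0.29, so that levels between 0.791 and 1.22 of the non-deprived level are compatible with it; the limma adjusted p was 0.996. The sign turned with the omission of any of 5 single arrays.

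The other probe set of Nr4a2, 92249_g_at, belongs to the type shared by a group of similar sequences and is annotated to the same source sequence as 92248_at, so it is not an independent measurement. Its signals were 232.3, 179.5, 146.4, 273.9 and 259.6 in deprived replicates 1 to 5, against 174.6, 213.9, 224.2, 281.5 and 249.3 in non-deprived replicates 1 to 5. The mean was 218.34 ± 54.0 in deprived and 228.7 ± 39.9 in non-deprived cortex (SD, n = 5 each). Again the groups overlapped, and 4 of 5 deprived arrays lay above the lowest non-deprived array. The log2 difference was -0.08 ± 0.18 (SE; 95% interval -0.46 to 0.30; limma adjusted p = 0.992). After the group means were taken out, the 2 probe sets of Nr4a2 moved together over the 10 arrays (Pearson r = 0.79). Nr4a1 had an r of 0.40 with 92248_at and of 0.04 with 92249_g_at on the same scale. These are descriptions over arrays that may share animals. Deviations of same-numbered deprived and non-deprived arrays correlated at 0.85 for Nr4a1, 0.90 for 92248_at and 0.35 for 92249_g_at (5 pairs). The 10 deviations behind each r may therefore not be independent.

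The difference between the 2 genes was tested directly, from log2 Nr4a1 minus log2 Nr4a2 within each array. With 92248_at, this value averaged 2.65 ± 0.43 in deprived and 3.48 ± 0.23 in non-deprived cortex (SD, n = 5 each). It ranged from 2.25 to 3.23 in deprived and from 3.15 to 3.66 in non-deprived arrays. The change of Nr4a1 less that of Nr4a2 was -0.83 ± 0.22 (SE) on the log2 scale (exact two-sided permutation p = 0.0159). This test too takes the arrays as unpaired. In the replicate block of the closing section its exact p was 0.0625, the smallest that 5 pairs allow. With 92249_g_at the difference was -0.77 ± 0.29 (SE; exact permutation p = 0.0397), and the p was over 0.05 without any 1 of the 5 non-deprived arrays (0.0556 to 0.0873). The level of either value has no meaning of its own, since probe sets differ in sensitivity. Only its shift between the groups is read. Filters, median scaling and variance models cannot change this shift or its exact p, so repeating them tests nothing.

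**Figure D4:**
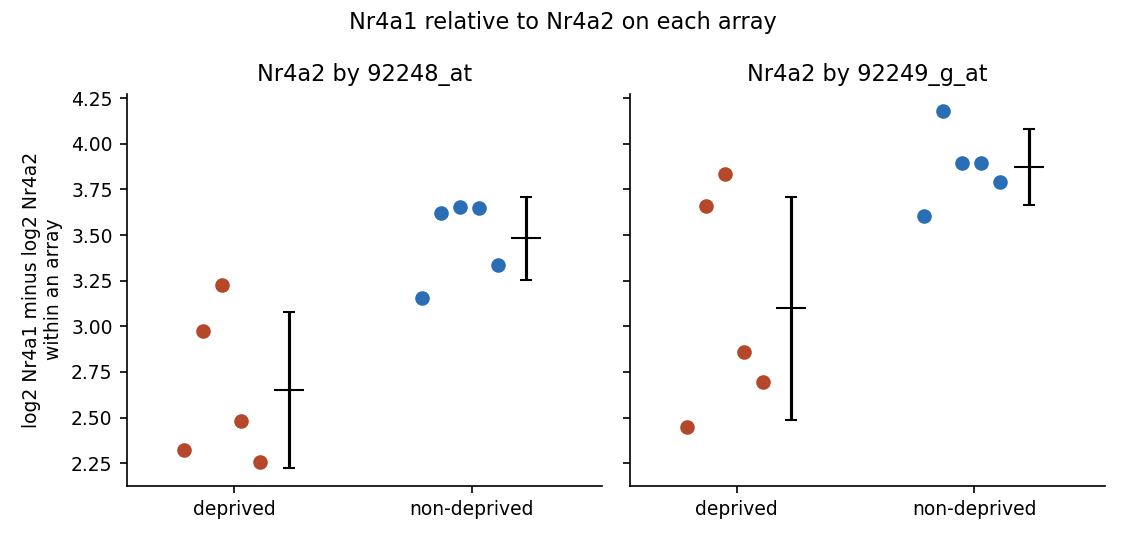
Log2 signal of Nr4a1 minus that of Nr4a2 within each array, for each Nr4a2 probe set, in deprived (left, red) and non-deprived (right, blue) cortex; points are arrays and bars give the mean and SD (n = 5 each). Deprived arrays average 2.65 and 3.10, against 3.48 and 3.87 in non-deprived arrays, and the ranges overlap in both panels.

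Genes around the receptors were read from 6 lists, 1 probe set per gene, with no test of a list. Over all 7453 tested probe sets the median log2 difference was 0.0066. Of 15 tested genes of other nuclear receptors, none was lower and 2 were higher at an unadjusted p under 0.05, against 2.36% lower and 2.43% higher over all tested probe sets, and none passed the adjusted threshold; the median was 0.04. Those 2 were Nr1i3, the xenobiotic receptor CAR (0.25 ± 0.09 SE), and Nr5a1, a receptor of steroid-forming cells (0.21 ± 0.08 SE). Nr1d1, the clock repressor Rev-erb alpha, had 0.31 ± 0.17 and Ppara, a regulator of fatty acid oxidation, had 0.23 ± 0.12. Over the list, differences ran from -0.38 to 0.31.

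Of 58 listed genes upstream of Nr4a transcription, 30 were tested. They included a calcium channel, calmodulin and its kinases, calcineurin, protein kinase A and MEF2 factors. Crem and Atf2 of the wider CREB family and kinases of the ERK cascade were also among them. The others were Adcy8, Crebbp, Elk1, Hdac5, Hdac7, Nfatc2 and Nfatc3. Creb1 was too dim to be tested, and Srf was not analysed here. None of the 30 passed even an unadjusted p of 0.05 in either direction, against 2.36% lower and 2.43% higher over all probe sets. Their median was -0.06, with 19 of 30 below 0. The smallest p-values belonged to Nfatc2, a calcineurin-driven factor (0.28 ± 0.15 SE), Camk2a, the calmodulin kinase of excitatory synapses (-0.29 ± 0.18), Prkar1b, a regulatory subunit of protein kinase A (-0.12 ± 0.08), and Hdac5, a class II deacetylase that represses MEF2 (-0.12 ± 0.08). Of 35 partners and modifiers of NR4A proteins, 1 was higher at an unadjusted p under 0.05 and none lower, a share near the 2.43% higher and 2.36% lower over all probe sets, with a median of -0.06. The gene was Daxx, a nuclear corepressor, whose signal averaged 352 ± 42.9 in deprived arrays and 287 ± 24.4 in non-deprived ones (SD, n = 5 each; log2 0.28 ± 0.11 SE). The SUMO ligases Pias3 and Pias1 had -0.31 ± 0.18 and -0.21 ± 0.12, and the deacetylase Hdac3 had 0.24 ± 0.15.

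Of 25 tested genes reported as NR4A targets in other tissues, 2 were lower and none higher at an unadjusted p under 0.05, against 2.36% lower and 2.43% higher over all tested probe sets, and the median was -0.01. They were Bdnf, brain-derived neurotrophic factor (-0.56 ± 0.12 SE), and Cdkn1a, a cell-cycle inhibitor (-0.37 ± 0.12); both are also on the list of activity-regulated early genes. Th, the enzyme of dopamine synthesis, had 178 ± 104 in deprived and 119 ± 39.5 in non-deprived cortex (SD, n = 5 each; log2 0.46 ± 0.30 SE), and the difference was 0.19 without deprived replicate 5 and 0.24 without non-deprived replicate 2. The Notch ligand relative Dlk1 had 0.29 ± 0.17. In the promoter table, 57 tested genes held AAAGGTCA in the upstream window. Their median log2 difference was 0.0039, against 0.0028 over the 4565 tested genes with a window, and 1 was higher (Med27, a Mediator subunit, 0.59 ± 0.13 SE) and none lower at an unadjusted p under 0.05. Of 137 tested genes with TGACGTCA, 8 (5.84%) were lower and none higher, against 2.58% lower and 2.28% higher over the 4565. Of those 8, 3 were early genes of the list that follows (Btg2, Dusp1 and Plk2).

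Nr4a2 is a marker of deep cortical and claustral neurons, so their other markers were set beside it. Of 10 tested subplate, layer 6b and claustrum markers, 1 was higher and none lower at an unadjusted p under 0.05, against 2.43% higher and 2.36% lower over all tested probe sets, and the median was 0.0042. That 1 was Kcnab1, a potassium channel subunit (0.28 ± 0.12 SE). Lxn, latexin, a marker of claustrum and lateral cortex, had 0.15 ± 0.11, Rprm 0.10 ± 0.09 and Serpini1, neuroserpin, 0.09 ± 0.07. These had the smallest p-values and were all positive, but 5 of the 10 markers lay below 0, down to -0.10 (Gnb4).

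**Figure D5:**
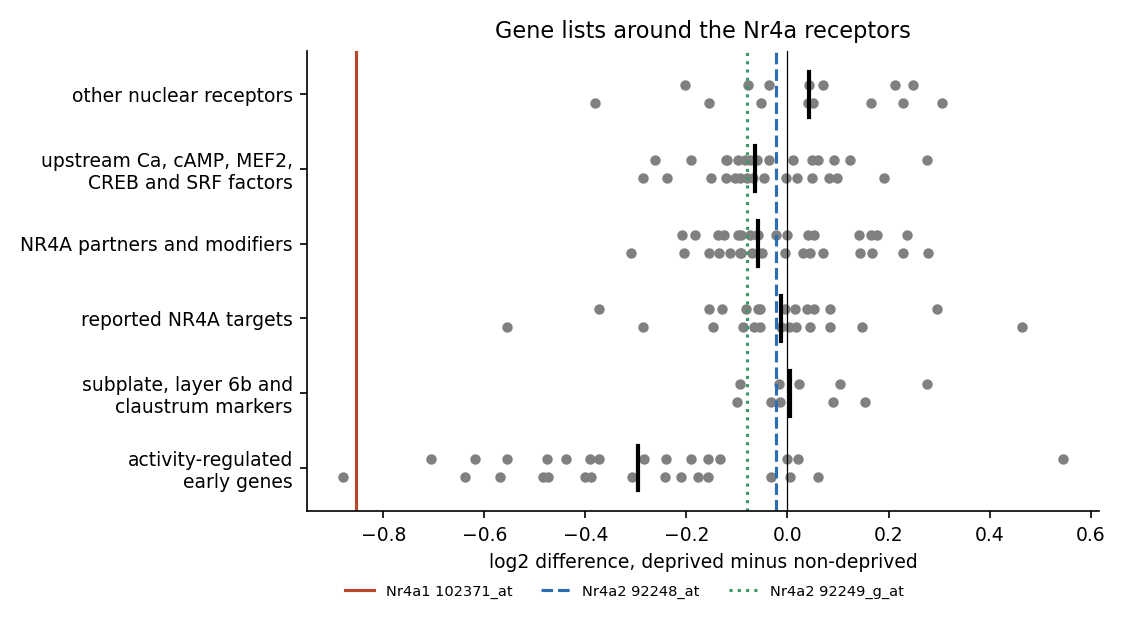
Log2 difference of deprived minus non-deprived cortex for the tested genes of 6 lists (grey points, 1 probe set per gene) with each list's median (black bar) and the values of the 3 Nr4a probe sets (vertical lines). The list of activity-regulated early genes lies to the left with a median of -0.30, and the other 5 medians lie between -0.06 and 0.04.

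Among 30 tested activity-regulated early genes other than Nr4a1 and Nr4a2, 18 (60%) were lower and none higher at an unadjusted p under 0.05, against 2.36% and 2.43% of all probe sets, and the median was -0.30. The groups did not overlap, with deprived arrays lower, for 8 of the 30, against 0.47% of all tested probe sets. For Nr4a1 they did overlap, because non-deprived replicate 1 lay below deprived replicate 2. With 1 array left out at a time, the count of lower early genes was 12 to 17, and it was 12 of 29 tested without deprived replicate 1. In these omissions none was higher except 1 without deprived replicate 4. In size, by the brightest probe set of each gene, only Fos of the 30 lay below Nr4a1, and 5 lay above both Nr4a2 probe sets (Homer1, Ier3, Jun, Jund and Zfp36). This list was chosen with results of these arrays known and is no independent evidence of its direction. Its smallest p-values belonged to Dusp6, a phosphatase of ERK (-0.62 ± 0.09 SE), Fos (-0.88 ± 0.15), Btg2, an antiproliferative early gene (-0.64 ± 0.13), and Egr1, a zinc-finger factor (-0.47 ± 0.10). Of 4 other tested probe sets of these genes, 1 lay below Nr4a1: 102362_i_at of Junb, an AP-1 subunit, averaged 552 ± 121 in deprived and 1115 ± 184 in non-deprived cortex (SD, n = 5 each). Its log2 difference was -1.004 ± 0.15 (SE), with the smallest p of all 7453 probe sets (1.05e-05; limma adjusted p = 0.0503), against -0.48 ± 0.14 for the brighter Junb probe set that stands for the gene here.

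The arrays within a group also differed in Nr4a1, and the likeness of other genes to this spread was described with Pearson r over the 10 arrays after subtracting each group's mean. Of the 30 early genes, 10 had an r above 0.5 with Nr4a1, against 7.15% of 6741 tested probe sets with 1 symbol. The highest were Klf4, a Krüppel-like factor (0.88), Ier2, an immediate early nuclear protein (0.86), and Btg2 (0.79). The lowest were Rgs2, a regulator of G-protein signalling (-0.21), Nptx2, a secreted pentraxin (-0.20), and Jun (-0.18). Dusp6 and the zinc-finger factor Egr2, with group differences of -0.62 and -0.71 on the log2 scale, had an r of 0.15 and 0.03. For Nr4a2 (92248_at), 6 of the 30 had an r above 0.5, against 9.39% of the 6741, with Id1 (0.81), Ier2 (0.70) and Dusp1 (0.64) as the highest and Rgs2 (-0.40), Inhba (-0.43) and Klf6 (-0.61) as the lowest.

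Over all tested probe sets with 1 symbol, the most like Nr4a1 were Flt1, a VEGF receptor (r = 0.94), Gstm5, a glutathione transferase (0.94), Necap2, an endocytosis adaptor (0.93), Erf, an ETS repressor controlled by ERK (0.92), Kdelr1, a receptor that returns proteins to the endoplasmic reticulum (0.90), and Eif4ebp2, a repressor of translation (0.89). The most like Nr4a2 were Mrps24, a mitochondrial ribosomal protein (0.89), Car2, a carbonic anhydrase (0.89), Derl1, of endoplasmic reticulum degradation (0.88), Ndrg1 (0.88), and the ribosome assembly factors Utp18 (0.88) and Nop53 (0.88). These are the extremes of 6739 values over 10 arrays, and they carry no test. Of these 12 genes, Gstm5 had the smallest unadjusted limma p for the group difference (0.0497; log2 -0.61 ± 0.28 SE).

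All 15 measured neuron markers were bright enough to be tested, and their summed signals were 48952 to 54965 in deprived and 50675 to 53044 in non-deprived arrays. Those of the 10 astrocyte, 10 oligodendrocyte, 14 microglial, 12 vascular and 12 thalamic, striatal or hippocampal markers overlapped between the groups as well, and no marker was at 0 on all arrays. At an unadjusted p under 0.05, 1 of 15 tested neuron markers was lower in deprived cortex (Nefm, a neurofilament subunit, -0.23 ± 0.10 SE) and 2 of 9 tested astrocyte markers were higher (Agt, angiotensinogen, 0.99 ± 0.35, and Slc1a2, a glutamate transporter, 0.38 ± 0.14), against 2.36% lower and 2.43% higher over all probe sets. The median of the astrocyte list was 0.05, with 3 of 9 below 0. No tested marker of the other lists passed that p, but 1 of 9 oligodendrocyte markers (median 0.14) and 2 of 10 microglial markers (median 0.06) lay below 0, against 48.0% of all probe sets. The part of these markers in the Nr4a1 result was not tested. For beta-actin, signal at the 3' end over that at the 5' end (higher in degraded RNA) ran from 1.43 to 1.70 in deprived and from 1.45 to 1.90 in non-deprived arrays. The labels give no batch or scan date.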

How the data were processed

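The 10 arrays, 1 per sample, were grouped by the titles. The deposited values are MAS5 signal intensities on a linear scale, per the submitters' processing notes; no source used here gives its version, scaling target or detection calls. After trimming 2% at each end, every array's mean was 499.9, so the arrays had been scaled before deposit and total RNA cannot be compared. Precision is limited by the number of arrays.

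Control probe sets (66) were not used. A platform annotation, updated through Entrez IDs, gave 10833 of 12422 probe sets 1 symbol, 396 several and 1193 none. Values were taken as log2(intensity + 16) with no further scaling of the deposited intensities. Probe sets with a mean below the 40th percentile were left out. Deprived minus non-deprived was fitted in limma 3.58.1 (R 4.3.3; eBayes with intensity trend, Benjamini-Hochberg over 7453). The procedure was also run on simulated data with independent noise on each array. Such data hold no sharing between same-numbered arrays, so the run cannot show how the procedure behaves under it. Single values were compared by exact permutation of arrays. The brightest probe set stands for each list gene.

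The members, lists and tests were chosen with earlier results of these data known. Named genes are the 4 of each list with the smallest p (for lists of other cell types and tissues, only those with an unadjusted p under 0.05), the 6 most like each member, and the 3 highest and lowest r among early genes; Dusp6 and Egr2 (as to r), Dusp1 and Plk2 (with TGACGTCA), Med27, the other Junb probe set and the 5 early genes above Nr4a2 were named after their values were seen.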

Additional observations from a re-analysis of the deposited data

How the results depend on the processing

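Nr4a1 was lower in deprived cortex under all 20 alternatives. Only omissions of 1 array (log2 -1.01 to -0.72), scalings and pseudocounts (-0.89 to -0.84) can move its estimate. Its limma adjusted p, 0.361 with all arrays, was under 0.05 without non-deprived replicate 1 (0.0303) and with a replicate block (log2 -0.85, adjusted p = 0.00372). It ranged up to 0.999 over the omissions and up to 0.612 otherwise. The exact permutation p of 0.0159 (log2 -0.85) is for this gene alone and unadjusted. Nr4a2 changed sign in 5 omissions for 92248_at (0.028 and 0.061 without deprived replicates 1 and 3, 7.7e-05, 0.015 and 0.026 without non-deprived replicates 2, 4 and 5; range -0.094 to 0.061). For 92249_g_at it did so in 1 (0.044 without deprived replicate 3; range -0.17 to 0.044). With a filter at the 60th percentile neither Nr4a2 probe set was tested. The change of Nr4a1 less that of Nr4a2 (92248_at) kept its direction and an exact p under 0.05 in 17 of 18 alternatives. Some of these cannot move it, and it was -0.97 to -0.73 over the omissions. In the replicate block (-0.83) the exact p was 0.0625, the smallest that 5 pairs allow. With 92249_g_at it kept its direction in all 18 alternatives run and an exact p under 0.05 in 11, at -0.96 to -0.61 over the omissions; beside the non-deprived omissions, it missed it with a pseudocount of 1 (-0.77, p = 0.0556) and in the block (-0.77, p = 0.0625).

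The number of probe sets past an adjusted p of 0.05 in limma was 0 with all arrays, 0 to 5 over the omissions, 2 with a pseudocount of 64 or the filter at that percentile, and 6 under the replicate block. Over all tested probe sets, deviations from the group means correlated at 0.02 to 0.23 between same-numbered arrays and at -0.25 to 0.09 between others. Of 10 arrays, 9 correlated best with their own number, a hint from the data, not the design. Nr4a1 was lower in deprived cortex in 5 of 5 same-numbered pairs (log2 -1.07 to -0.63). The labels do not say what a shared number means. Of the genes named after likeness, Flt1 (-0.24 to 0.56), Kdelr1 (-0.077 to 0.012) and Derl1 (-0.0500 to 0.065) changed sign in omissions. Derl1 also did so under median scaling (-0.020). The median of the early gene list was -0.39 with that filter and -0.35 to -0.25 over the omissions; that of the reported targets reached 0.03 at most, that of the upstream genes was -0.02 without non-deprived replicate 2, and that of the subplate markers was 0.06 without non-deprived replicate 5 and at that filter. Of genes past no test, Nfatc2 had 0.16 without non-deprived replicate 2, Hdac3 0.13 without deprived replicate 5 and Lxn 0.07 without non-deprived replicate 3. Where a value moved, the cause was not tested.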
